A study of Mus musculus with 3 samples.

Results

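The mitochondrial ribosomal protein genes, all those with a symbol of Mrpl or Mrps and a number, were examined for NR2F2 peaks at their promoters in the fetal mouse testis. They were 78 of the 21000 protein-coding genes of the curated RefSeq annotation of GRCm38 (mm10), after symbols of pseudogenes were dropped. A promoter peak was a deposited peak whose nearer edge lay within 1 kb of any transcription start site (TSS) of the gene. Of the 78 genes, 42 had such a peak, and Mrpl40 had 2, so that 43 of the 10069 deposited peaks belonged to the set. NR2F2 (COUP-TFII), a nuclear receptor of interstitial cells, was immunoprecipitated from chromatin of whole E14.5 testes of CD-1 mice, with 30 testes pooled for each of 2 ChIP experiments. A single antibody against COUP-TFII was used, and the input library, chromatin sequenced without immunoprecipitation, was the single control. The labels give no treatment or mutation for any of the 3 libraries, so no condition was compared, only ChIP with input and peaks with each other. A whole testis mixes interstitial, Sertoli, germ and endothelial cells, and the counts do not tell in which of them a peak arose. No RNA was measured in these libraries, so the labelled tissue was not checked against marker genes.

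The mitochondrial ribosome translates the few messenger RNAs that the mitochondrial genome encodes, which specify core subunits of the respiratory chain and ATP synthase. All its proteins are encoded in the nucleus, made in the cytosol and imported. Some descend from bacterial ribosomal proteins and others are found in mitochondria only. Nuclear receptors such as NR2F2 bind the hexamer AGGTCA or close relatives of it, singly or as pairs. Promoters of genes for mitochondrial proteins are known for binding sites of the factors NRF1, YY1 and the ETS family.

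The sequences below were chosen as examples of the AGGTCA hexamer under a peak, at genes with high counts (Mrps28, Mrpl4 and Mrps9) and at 1 gene with middle counts (Mrps15), and of a high peak without it (Mrpl11). All are from GRCm38 and are written 5′ to 3′ in the direction of the gene, with AGGTCA, or TGACCT where it lies on the other strand, in capitals. The Mrps28 peak, the highest of the set, held a pair of hexamers in the 5′ UTR of Mrps28, pointing away from each other with 15 bases between them (chr3:8923814-8923840, minus strand).
Mrps28: TGACCTgcaagcgtgcagaagAGGTCA
In Mrpl4, the stretch of the peak that begins at the start codon (chr9:21002941-21003125, plus strand) runs from the first exon through the first intron into the exon after it. It held 3 hexamers on the gene's strand, and 7 bases separated the first pair.
Mrpl4: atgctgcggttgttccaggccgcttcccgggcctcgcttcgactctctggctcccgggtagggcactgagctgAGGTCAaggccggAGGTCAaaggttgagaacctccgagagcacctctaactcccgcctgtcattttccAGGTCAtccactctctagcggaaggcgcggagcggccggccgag
The Mrps9 peak (chr1:42851307-42851606, plus strand) runs from coding sequence of the first exon into the first intron, where its 1 AGGTCA hexamer lay.
Mrps9: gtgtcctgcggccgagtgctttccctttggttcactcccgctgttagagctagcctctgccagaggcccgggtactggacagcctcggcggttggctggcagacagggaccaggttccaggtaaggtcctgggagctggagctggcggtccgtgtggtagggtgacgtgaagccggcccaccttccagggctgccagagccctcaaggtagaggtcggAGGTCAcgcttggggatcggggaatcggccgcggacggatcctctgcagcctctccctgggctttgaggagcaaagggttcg
The Mrps15 peak is shown from its start to the base before the TSS (chr4:126046646-126046927, plus strand), with 2 hexamers.
Mrps15: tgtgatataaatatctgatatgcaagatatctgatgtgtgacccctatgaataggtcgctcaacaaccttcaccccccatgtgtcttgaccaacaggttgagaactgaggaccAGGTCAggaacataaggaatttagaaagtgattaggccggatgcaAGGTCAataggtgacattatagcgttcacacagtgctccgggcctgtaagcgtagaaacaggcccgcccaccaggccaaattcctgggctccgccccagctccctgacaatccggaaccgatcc
The Mrpl11 peak, the highest without an AGGTCA hexamer, is likewise shown up to the TSS (chr19:4962043-4962305, plus strand). The related hexamer GGGTCA lay on the other strand of this peak, beyond the stretch shown (chr19:4962320-4962325).
Mrpl11: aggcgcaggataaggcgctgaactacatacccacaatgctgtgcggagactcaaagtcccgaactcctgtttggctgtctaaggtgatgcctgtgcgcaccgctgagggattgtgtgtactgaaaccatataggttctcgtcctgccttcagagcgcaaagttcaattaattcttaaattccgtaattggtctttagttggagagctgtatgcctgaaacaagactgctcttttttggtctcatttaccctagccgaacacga

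NR2F2 peaks lay at the promoters of 42 of 78 mitochondrial ribosomal protein genes (53.8%), against 5894 of 21000 protein-coding genes (28.1%). Peaks were called on the merged ChIP replicates, so this share has no replicate error. When a peak had to overlap the TSS, the shares were 28.2% and 11.4%. With at least 30 counts in each ChIP replicate they were 38.5% and 16.4%. The gap depended on the kind of promoter. A promoter was taken as CpG-rich when the 1000 bases around a TSS had at least 50% G and C and a CpG observed-to-expected ratio of at least 0.6, a split chosen after the data were seen. By this measure 85.9% of the mitochondrial ribosomal protein genes were CpG-rich, against 50.2% of protein-coding genes. Among CpG-rich promoters, 33 of 67 mitochondrial ribosomal protein genes had a peak (49.3%), close to the 5104 of 10541 protein-coding genes (48.4%). Among the others, 9 of 11 had a peak (81.8%), against 790 of 10459 protein-coding genes (7.55%). These 9 were Mrpl1, Mrpl3, Mrpl11, Mrpl16, Mrpl20, Mrpl35, Mrpl45, Mrps9 and Mrps17, and the 2 without a peak were Mrpl22 and Mrpl24. Most of the 11 lay near the limits, with a G and C content from 46.2% to 58.3% and a CpG ratio from 0.361 to 0.866. Mrpl1, Mrpl3, Mrpl16, Mrpl22, Mrpl24, Mrpl45 and Mrps17 passed the CpG ratio and missed only the G and C limit, at 48.8% to 49.5%. The protein-coding genes that were not CpG-rich were not matched to them for nearness to the limits, so 81.8% and 7.55% may not compare like promoters. With the limits raised to 55% and 0.65, 23 of 42 CpG-rich members had a peak (54.8%), against 50.3% of CpG-rich protein-coding genes. Below those limits the counts were 19 of 36 (52.8%) and 1609 of 12489 (12.9%). Thus members and protein-coding genes had nearly equal shares among CpG-rich promoters under both definitions, and the shares were apart among the rest.

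**Figure D1:**
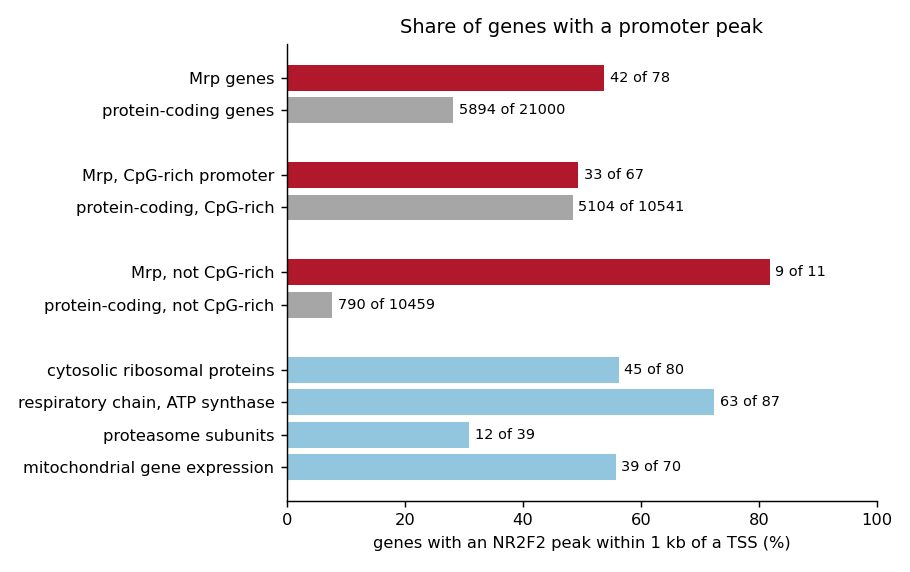
Bars give the percentage of genes with an NR2F2 peak within 1 kb of a TSS, with the numbers of genes written beside them (red, mitochondrial ribosomal protein genes, Mrp; grey, protein-coding genes; blue, other gene lists, where mitochondrial gene expression joins 5 lists). The red and grey bars are 53.8% and 28.1% for all genes and 49.3% and 48.4% for CpG-rich promoters.

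Neighbouring genes were a further difference between promoters. Another protein-coding or non-coding TSS lay within 1 kb at 32 members, of which 15 had a peak (46.9%), against 51.1% of protein-coding genes with such a neighbour. Of the 46 members alone within 1 kb, 27 had a peak (58.7%), against 24.1% of protein-coding genes alone. This split was not combined with the CpG split, so these shares are not matched for CpG content. At 15 of the 42 genes the peak was shared with the TSS of another gene, and such a peak cannot be assigned to either. The partners were Ppp1r10 and Mir1894 at Mrps18b, Ska3 at Mrpl57, Ndufb5 (a complex I subunit) at Mrpl47, Zfp661 at Mrps5, 4930473A02Rik at Mrps26, Pnpla7 at Mrpl41, Hira at both Mrpl40 peaks, Slc5a3 at Mrps6, Tcp1 at Mrpl18, Ptcd2 at Mrps27, C920021L13Rik at Mrps21, Mtbp at Mrpl13, Helq at Mrps18c, Psma2 at Mrpl32 and Lrrc46 at Mrpl10.

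Both subunits of the ribosome were represented. Of the 51 large-subunit genes, 24 had a promoter peak (47.1%), and of the 26 small-subunit genes 17 did (65.4%). Mrps18a and Mrps30 were counted with the large subunit, where their proteins sit. Mrps36, which encodes a protein now assigned to the oxoglutarate dehydrogenase complex, was counted with neither and had a peak. Genes whose proteins have a bacterial counterpart had a peak at 27 of 46 (58.7%), and genes whose proteins are found in mitochondria only at 14 of 31 (45.2%). In this split Mrps18a and Mrps18b were counted as mitochondria only and Mrps18c with a bacterial counterpart, although they share the S18 name. Within the large subunit these counts were 16 of 30 and 8 of 21, and within the small subunit 11 of 16 and 6 of 10. These shares are given as counts and were not tested against each other.

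At the 43 peaks, counts were higher than at other promoter peaks, while the ratio to input differed little. Counts are of reads in the 300 bp peak, raw and comparable between peaks of 1 library. The median was 8 in the input, 55 in ChIP replicate 1 and 45 in ChIP replicate 2, against 7, 40 and 33 at the 5654 promoter peaks of protein-coding genes. The ratio of the member median to the promoter median was 1.37 ± 0.00804 (mean and SD, n = 2 ChIP experiments). Among peaks that overlap a TSS, the same ratio was 1.08 in replicate 1 and 1.12 in replicate 2. On the log2 scale with 0.5 added to each count, the median ChIP to input ratio was 2.49 and 2.28 at the member peaks and 2.46 and 2.20 at promoter peaks. The difference was 0.05 ± 0.04 (SD, n = 2), but 0.14 with 5 added to each count and 0.30 at peaks with at least 10 input counts. Of the 43 peaks, 28 had a mean ChIP count over the promoter median of 36.5, and 28 had an input count over the promoter median of the input. A log2 ratio over the promoter median was found at 21 in both replicates. A mean ChIP count over 67, the 90th percentile of promoter peaks, was reached by 9 of 43 member peaks (20.9%) and, with ties left out, by 9.76% of promoter peaks.

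**Figure D2:**
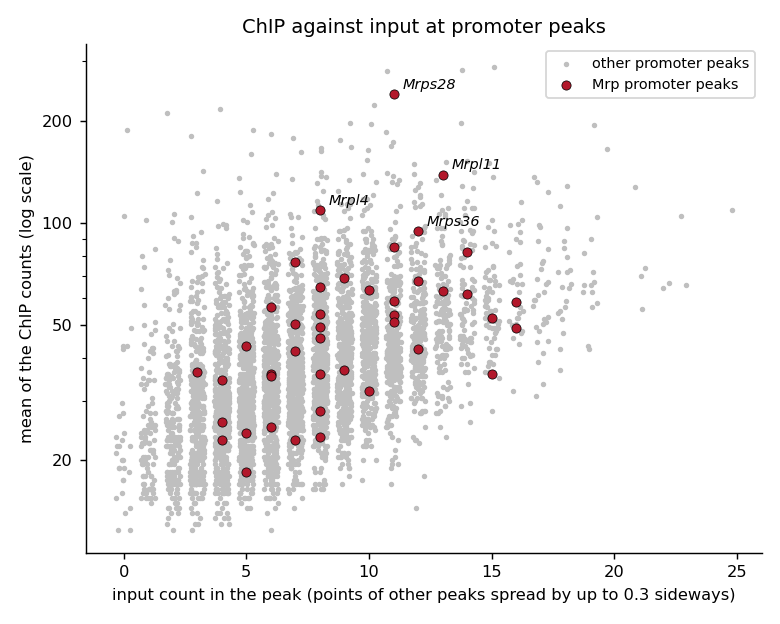
Each point is 1 promoter peak, with its input count on the x axis and the mean of its 2 ChIP counts on the log y axis (red, the 43 peaks of mitochondrial ribosomal protein genes; grey, other promoter peaks). The member peaks lie among the other promoter peaks, and Mrps28 stands at 240 ChIP counts over 11 input counts.

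Mrps28, which encodes a protein of the small subunit, carried the strongest peak of the set. Its peak (Gene ID 66230, chr3:8923562-8923861, midpoint 146 bp downstream of the TSS, in coding exon sequence) had 11 counts in the input, 270 in ChIP replicate 1 and 210 in ChIP replicate 2. It ranked 4 among the 5654 promoter peaks by mean ChIP count. In edgeR's quasi-likelihood test, which asks whether a peak's ChIP to input ratio exceeds that of the typical peak, it lay 2.12 ± 0.33 (SE) above on the log2 scale, with a Benjamini-Hochberg adjusted p of 3.08e-07 over all peaks. The evidence was weaker in other settings. With DESeq2 size factors the edgeR adjusted p was 0.0121, and the DESeq2 Wald test gave an adjusted p of 0.0364. Without a fit, the log2 ratio to input less its median over all peaks was 2.20 in replicate 1 and 2.06 in replicate 2. Here 0.5 was added to each count. Mrps28 was the only member called above the typical peak, 1 of 43, where 1.89% of promoter peaks were called. Below the typical peak, edgeR called 0 of the 43 and 0 of the 5654 promoter peaks. At an unadjusted p under 0.05, edgeR placed 4 members above (Mrps28, Mrpl11, Mrpl4 and Mrps9, 9.30%, against 9.29% of promoter peaks) and 1 below (Mrps27, 2.33%, against 1.57%). DESeq2 called 1 member above and 0 below by adjusted p, of the 7 to which it gave one, and 3.70% of the promoter peaks with an adjusted p above.

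Among large-subunit genes with a bacterial counterpart, Mrpl11 and Mrpl4 led. Mrpl11 encodes a protein at the base of the stalk where translation factors dock, and its peak (Gene ID 66419, chr19:4962043-4962342, midpoint 114 bp upstream of the TSS, outside any gene) had 13 input counts and 132 and 146 ChIP counts. It ranked 40, and its edgeR log2 value was 1.11 ± 0.37 (SE), with an adjusted p of 0.102. Limited to peaks with at least 10 input counts, it was 1.43 and passed, with an adjusted p of 0.0144. In every other setting it did not pass. The edgeR adjusted p was 0.215 with totals at peaks only and 0.393 with DESeq2 size factors, and the DESeq2 Wald test gave 0.354. Mrpl4 encodes a protein that lines the exit tunnel of the nascent chain, and its peak (Gene ID 66163, chr9:21002826-21003125, midpoint 238 bp downstream of the TSS in coding exon sequence) had 8 input counts and 123 and 95 ChIP counts. It ranked 101, with an edgeR log2 value of 1.44 ± 0.45 (SE) and an adjusted p of 0.0714. By the adjusted test over all peaks, neither was called above the typical peak.

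The other members of this class had lower mean ChIP counts, from 69 at Mrpl23 to 18.5 at Mrpl9. Mrpl23, another protein near the tunnel exit, had 9 input counts and 78 and 60 ChIP counts, and Mrpl12, the stalk protein, had 12 input counts and 73 and 62. Mrpl47 had 13 input counts and 61 and 65 in the ChIP, Mrpl20 16 and then 60 and 57, and Mrpl16 6 and then 59 and 54. Mrpl35 had 7 input counts and 55 and 46 ChIP counts, and Mrpl17 16 and then 53 and 45. In these 7 genes both replicates lay above the promoter median of 36.5, including Mrpl20 and Mrpl17, which shared the highest input count of the set. Mrpl18 had 8 input counts and 44 and 28 ChIP counts, Mrpl1, of the mobile L1 stalk, 4 and then 41 and 28, and Mrpl13 8 and then 28 and 28. Mrpl3, of the peptidyl transferase region, had 8 input counts and 24 and 23 ChIP counts. The 3 peaks with the lowest mean ChIP counts were of this class too. Mrpl9 (Gene ID 78523, chr3:94443557-94443856, midpoint in coding exon sequence) had 5 input counts and 20 and 17 ChIP counts, an edgeR log2 value of -0.43 ± 0.76 (SE) and an adjusted p of 0.929. Mrpl10, which anchors Mrpl12 in the stalk (Gene ID 107732, chr11:97041571-97041870, midpoint in an intron), had 4 input counts and 23 in each replicate, with 0.21 ± 0.77 (SE) and an adjusted p of 0.970. Mrpl32 (Gene ID 75398, chr13:14612836-14613135, midpoint in a coding exon) had 7 input counts and 30 and 16 ChIP counts, with -0.60 ± 0.65 (SE) and an adjusted p of 0.859.

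Peaks of large-subunit genes found in mitochondria only ran from a mean ChIP count of 24, at the upstream Mrpl40 peak, to 85, at Mrpl53. Mrpl53 (Gene ID 68499, chr6:83108798-83109097, midpoint 161 bp upstream of the TSS, within the 3′ UTR of the neighbouring gene Ccdc142) had 11 input counts and 96 and 74 ChIP counts, with an edgeR log2 value of 0.63 ± 0.44 (SE) and an adjusted p of 0.702. Mrpl42 had 8 input counts and 74 and 56 ChIP counts, Mrpl57 10 and then 73 and 54, and Mrpl45, which helps to tether the ribosome to the inner membrane, 11 and then 63 and 55. Mrpl41 had 15 input counts and 50 and 55 ChIP counts, Mrps18a 12 and then 47 and 38, and Mrpl39 6 and then 32 and 18. Mrpl40 had a peak on either side of its TSS, with 5 input counts in each. The downstream peak had 50 and 37 ChIP counts, and the upstream peak, towards Hira, 26 and 22. In both replicates the downstream peak was the higher.

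Below Mrps28, the small-subunit peaks ran from a mean ChIP count of 26, at Mrps18c, to 82, at Mrps18b. Among those with a bacterial counterpart, Mrps9 (Gene ID 69527) had 7 input counts and 71 and 83 ChIP counts, Mrps5 14 and then 62 and 62, and Mrps2 8 and then 61 and 38. Mrps15 had 8 input counts and 43 and 49 ChIP counts, Mrps6 3 and then 40 and 33, and Mrps10 6 and then 36 and 36. Mrps21 had 6 input counts and 40 and 31 ChIP counts, Mrps16 10 and then 28 and 36, and Mrps18c 4 and then 30 and 22. Mrps6 had the lowest input count of the set. Mrps17 had 7 input counts and differed most in proportion between replicates, with 61 and 23. Among small-subunit genes found in mitochondria only, Mrps18b had 14 input counts and 92 and 72 ChIP counts, Mrps33 8 and then 63 and 45, and Mrps26 11 and then 64 and 43. Mrps35 had 11 input counts and 55 and 47 ChIP counts, Mrps23 9 and then 46 and 28, and Mrps27 15 and then 38 and 34. Mrps27 was the member below the typical peak at an unadjusted p, with an edgeR log2 value of -1.05 ± 0.47 (SE) and an adjusted p of 0.368. Mrps36 (Gene ID 66128, chr13:100744317-100744616, midpoint in an intron) had 12 input counts and 102 and 87 ChIP counts, with 0.66 ± 0.42 (SE) and an adjusted p of 0.645.

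**Figure D3:**
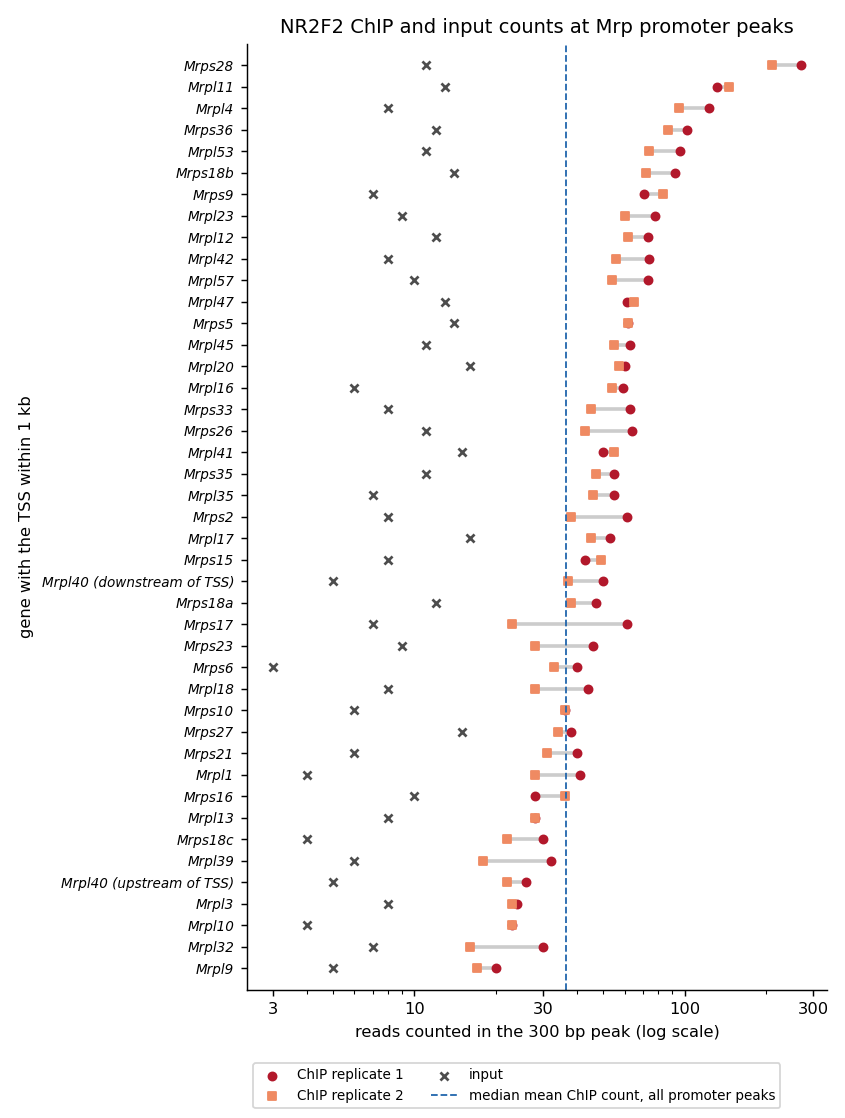
Reads counted in the 300 bp peak (log x axis) at each of the 43 promoter peaks, ordered by the mean of the ChIP replicates, with 1 symbol per library and a grey bar that joins the replicates. Mrps28 is the highest in both replicates, and the dashed line marks the median mean ChIP count of promoter peaks, 36.5.

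The 2 ChIP experiments gave similar counts at these peaks. The ChIP count exceeded the input count in both replicates at 43 of 43 peaks, as it did at all 5654 promoter peaks, which were selected for high ChIP counts. Replicate 1 was higher at 33 peaks, replicate 2 at 6, and they were equal at 4, with totals at all peaks that differed by a factor of 1.17. When each peak was tested by an exact binomial test (two-sided, adjusted over all peaks), 0 of 43 differed between the replicates, as did 0.0% of promoter peaks. At an unadjusted p under 0.05 the test gave 2 members (4.65%) and 7.85% of promoter peaks. The members were Mrps17, with an exact binomial p of 0.000610 and an adjusted p of 0.151, and Mrpl11, with an exact binomial p of 0.0350. Of the 10 highest members in replicate 1, 7 were also among the 10 highest in replicate 2.

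The peaks sat close to the TSS. Of the 43, 22 overlapped it (51.2%), against 38.3% of the 6276 pairs of a promoter peak and a protein-coding gene, and 40 reached within 300 bp of it (93.0%, against 82.1%). The median distance of the midpoint from the TSS was 146 bp, against 199 bp over all pairs, and the offsets ran from 582 bp upstream at Mrpl47 to 756 bp downstream at Mrpl20. The midpoint lay downstream of the TSS at 23 peaks (53.5%), against 60.2% of all pairs. By annotation, 12 midpoints were in introns, 10 in coding exons, 10 outside any gene, 8 in 5′ UTRs, 2 in non-coding exons and 1 in a 3′ UTR. Mrpl20 was the member just inside the limit of 1 kb, with its peak edge 607 bp from the TSS, and its peak had 60 and 57 ChIP counts. Mrpl34 was just outside, with a peak 1240 bp away that had 76 and 80 ChIP counts.

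**Figure D4:**
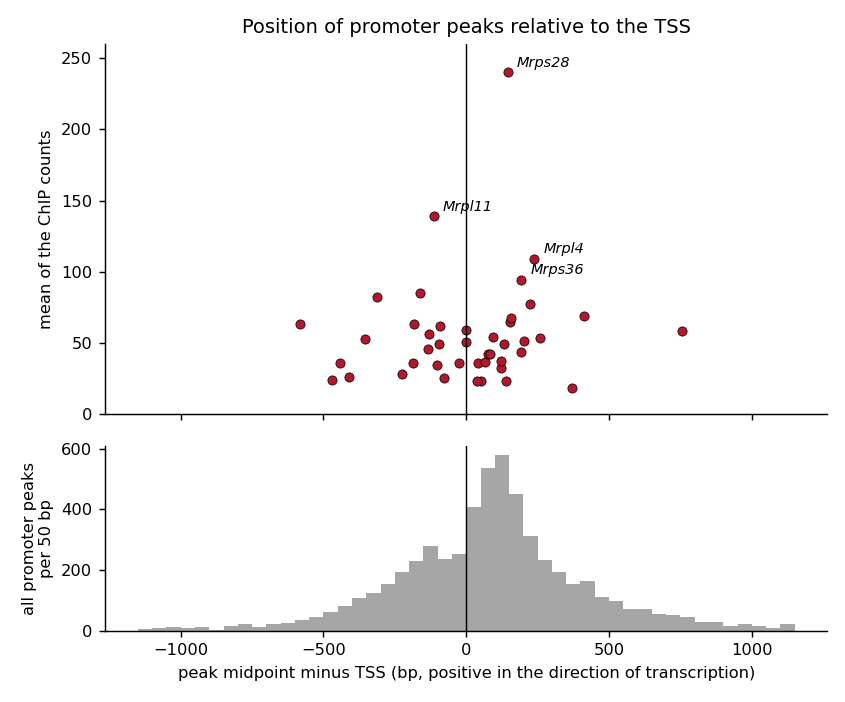
The upper panel plots the mean ChIP count of each of the 43 peaks against the distance of its midpoint from the TSS, in bp and positive in the direction of transcription, and the lower panel counts all promoter peaks per 50 bp of distance from their nearest protein-coding TSS. Members lie between 582 bp upstream and 756 bp downstream, and both kinds of peak gather close to the TSS.

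The remaining 36 genes had no promoter peak. They were Mrpl2, Mrpl14, Mrpl15, Mrpl19, Mrpl21, Mrpl22, Mrpl24, Mrpl27, Mrpl28, Mrpl30, Mrpl33, Mrpl34, Mrpl36, Mrpl37, Mrpl38, Mrpl43, Mrpl44, Mrpl46, Mrpl48, Mrpl49, Mrpl50, Mrpl51, Mrpl52, Mrpl54, Mrpl55, Mrpl58, Mrps7, Mrps11, Mrps12, Mrps14, Mrps22, Mrps24, Mrps25, Mrps30, Mrps31 and Mrps34. The nearest peak was from 1 to 10 kb away at 6 of them, from 10 to 100 kb at 23 and farther at 7. Near Mrpl36, a peak 2461 bp from the TSS had 196 and 198 ChIP counts over 9 in the input, more than any member's promoter peak but that of Mrps28. It is the promoter peak of Ndufs6, a complex I subunit. Counts were given at called peaks only, so a signal at these 36 promoters that fell short of the caller's threshold was not measured.

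The hexamer AGGTCA was found under 15 of the 43 peaks (34.9%), searched on both strands, against 25.4% of promoter peaks and 37.7% of all placed peaks. Among peaks that overlap a TSS it was under 7 of 22 (31.8%), against 22.8%. The longer AAGGTCA, which contains it, was found under 8 (18.6%), against 8.38% of promoter peaks, and the related GGGTCA under 13 (30.2%), against 29.1%. Beside Mrps28, Mrpl4, Mrps9 and Mrps15, shown above, the hexamer lay under the peaks of Mrpl10, Mrpl12, Mrpl35, Mrpl42, Mrpl47, Mrpl53, Mrpl57, Mrps6, Mrps21, Mrps33 and Mrps35. The 15 peaks with AGGTCA had a median mean ChIP count of 63 (from 23 to 240), and the 28 without it 42.25 (from 18.5 to 139). Over all promoter peaks these medians were 43.5 and 34.5. The ranges of the 15 and the 28 overlapped widely, from Mrpl10, which has the hexamer, at 23, to Mrpl11, which does not, at 139.

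Letters recognised by ETS factors were frequent too. CCGGAAG was found on either strand under 16 of 43 peaks (37.2%), against 16.1% of promoter peaks. Among peaks that overlap a TSS it was under 8 of 22 (36.4%), against 25.6%. The 16 peaks had a median mean ChIP count of 36.5 (from 23 to 94.5), and the 27 without it 52.5 (from 18.5 to 240). The windows below, each 29 bases, show it in capitals on the gene's strand at the members with CCGGAAG and the highest counts, Mrps36 (chr13:100744580-100744608, minus strand, 5′ UTR), Mrpl53 (chr6:83109038-83109066, plus strand) and Mrpl42 (chr10:95501847-95501875, minus strand, intron).
Mrps36: tcgtctgcgccCCGGAAGctgcccctgct
Mrpl53: ccgcggagccgCCGGAAGcggtccgttcc
Mrpl42: tccttacaggcCCGGAAGgcttgtccgta
The NRF1 letters GCGCATGCG were under 4 peaks (9.30%), at Mrpl17, Mrpl32, Mrpl39 and Mrps18b, against 1.87% of promoter peaks. The YY1 letters AAGATGGCG were also under 4 (9.30%), at Mrpl35, Mrpl42, Mrps10 and Mrps18a, against 3.10%. Among peaks that overlap a TSS, each was under 3 of 22 (13.6%), against 3.08% for NRF1 and 5.17% for YY1. CCAAT, read by NFY, was under 9 (20.9%, against 24.4%), and GGGCGG, read by SP and KLF factors, under 20 (46.5%, against 57.9%). The windows from 250 bases before to 50 after the start in the RefSeq table (GRCm38) held 69 of the 78 members, some with more than 1 start: 39 promoters of 38 genes with a peak and 36 promoters of 31 genes without. There CCGGAAG was in 35.9% of the former and 33.3% of the latter, against 11.9% of all 20488 protein-coding promoters, and AGGTCA in 15.4% and 13.9%, against 14.4%. GCGCATGCG was in 6 of the 39 (15.4%) and 1 of the 36 (2.78%), against 2.43%. A match of letters is a description of the sequence and not a measured site.

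Other genes of mitochondrial gene expression had promoter peaks at a like share. Of 70 such genes, 39 had one (55.7%). By role, 5 of 6 genes listed as other mitoribosome proteins had one, a list that includes the membrane insertase Oxa1l. Translation factors gave 9 of 16 and mitochondrial aminoacyl-tRNA synthetases 6 of 17. Assembly factors of the ribosome gave 14 of 24 and genes of mitochondrial transcription 5 of 7. The highest counts were at Guf1, a translational GTPase, with 5 input counts and 169 and 206 ChIP counts, and at Chchd1, a protein of the small subunit, with 9 and then 178 and 174. Oxa1l, which inserts new chains into the inner membrane, had 13 input counts and 150 and 117 ChIP counts, and Aars2, the alanyl-tRNA synthetase, 9 and then 130 and 97. Aurkaip1, of the small subunit, had 11 input counts and 103 and 89 ChIP counts, and Mrm1, a methyltransferase of ribosomal RNA, 15 and then 76 and 68. The 63 of 87 respiratory chain and ATP synthase genes with a peak (72.4%) exceeded the share of the mitochondrial ribosomal proteins, and the 45 of 80 cytosolic ribosomal protein genes (56.2%) were close to it. Proteasome subunits, with 12 of 39 (30.8%), were near the share of all protein-coding genes. The median mean ChIP count was 49.5 at member peaks, 47 at cytosolic ribosomal protein peaks, 55.5 at respiratory chain and ATP synthase peaks and 30.5 at proteasome peaks.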

How the data were processed

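NR2F2 ChIP-seq was made from E14.5 testes, with 2 ChIP libraries and 1 input. The authors deposited raw counts, 1 value per peak and library. According to the methods, the authors trimmed reads with Trim Galore 0.6.7, mapped them to mm10 with Bowtie 2, removed duplicates with Picard 1.110, called peaks with HOMER 4.11.1 on merged replicates and set each to 300 bp. The rule by which a read was assigned to a peak was not given in the sources used. Every peak was thus selected for high ChIP counts, and duplicate removal limits how high a count can rise.

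Summed over peaks, the input held 73251 counts and the ChIP libraries 426784 (replicate 1) and 364261 (replicate 2). They are not sequencing depths, so ratios were compared between peaks only. Intervals from counts cover counting error, and edgeR assumes that the single input varies like the 2 ChIP libraries.

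TSSs came from 45756 curated RefSeq transcripts (GRCm38.p6). Tests used edgeR 4.0.16 (quasi-likelihood, TMM factors on counts at peaks, all 10069 peaks, Benjamini-Hochberg adjusted p under 0.05) in R 4.3.3, checked on simulated data, and an exact binomial test (scipy 1.17.1). DESeq2 1.42.0 was an alternative. Of the peaks, 5 lay on unplaced sequence and had no motif search. Members and lists were chosen with earlier results of these data known. Every member with a peak is named with its counts, the 5 highest and 3 lowest and those past the threshold with full statistics, and of the other lists at most 6 genes.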

Additional observations from a re-analysis of the deposited data

How the results depend on the processing

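The share of mitochondrial ribosomal protein genes with a promoter peak (53.8%) was 28.2% when the peak had to overlap the TSS, 38.5% with at least 30 counts in each ChIP replicate, and from 39.7% to 47.4% with that limit in 1 replicate. All stood above the shares of protein-coding genes under the same settings, which were 11.4%, 16.4%, and 17.4% and 21.6%. In the CpG-rich promoters, a setting chosen after seeing the data together with the promoters alone within 1 kb, the members and all protein-coding genes were nearly level. Limited to peaks with at least 10 input counts, which leaves 18 of the 43, edgeR called 2 members above the typical peak, Mrps28 and Mrpl11, in place of 1, and 2.91% of promoter peaks. The median log2 ratio of members less that of promoter peaks, 0.05 in the main setting, was 0.14 with 5 added to each count, 0.30 with at least 10 input counts, and from 0.03 to 0.08 with either replicate left out. The ratio of median ChIP counts, 1.37, was 1.349 after scaling to the totals at peaks, 1.101 at peaks that overlap a TSS, and from 1.364 to 1.375 with either replicate left out. AGGTCA was in the central 100 bp of 14.0% of member peaks, against 10.9% of promoter peaks. The values above and the log2 values of the 5 highest and 3 lowest peaks kept their direction under the alternatives run. Among the other peaks, none of them called, the edgeR log2 value changed sign at Mrpl45 with totals at peaks only (0.11 to -0.01) and, with at least 10 input counts, at Mrps5 (-0.17 to 0.15), Mrps26 (-0.04 to 0.28), Mrpl47 (-0.04 to 0.28) and Mrps35 (-0.10 to 0.22). The cause of these shifts was not tested. With either ChIP replicate left out of the edgeR test, 1 ChIP library stands against 1 input, so per-replicate values are given with no test. No paired analysis was possible because the input label carries no replicate number and the compared groups share fewer than 2 numbers.

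A single input with a median of 8 counts at these peaks limits each ratio, the 2 ChIP experiments limit the error estimate, and the peak list cannot show weaker signal at promoters without a peak. Shared promoters could not be assigned to 1 gene, and cells of different types were pooled.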
